A study of Mus musculus with 4 samples.

Results

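Voltage-gated calcium and sodium channel genes are described here in mouse brain RNA, in 2 inbred strains and the hybrids from both directions of their cross. Members were chosen by gene symbol: the pore-forming calcium subunits (Cacna1), the auxiliary calcium subunits of the alpha2delta (Cacna2d), beta (Cacnb) and gamma (Cacng) families, and the sodium channel alpha and beta subunits (Scn followed by a number and a or b). The rule found 40 of 45215 genes, 26 for calcium and 14 for sodium channels, with 262 of 128603 transcripts. Of these 40 genes, 28 had a mean of at least 1 FPKM over the 4 libraries and entered the comparisons, and 12 did not. FPKM, fragments scaled by transcript length and by library size, is the unit of level, and a gene's level is the sum over its transcripts of at least 200 bases.

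The 4 groups were F1r mice (CAST/EiJ x C57BL/6), F1i mice (C57BL/6 x CAST/EiJ), CAST mice (strain CAST/EiJ, an inbred strain derived from wild Mus musculus castaneus) and B6 mice (strain C57BL/6, a standard laboratory strain). All 4 were labelled as brain and wild type, with no statement of which parent of a hybrid was the dam. Each group was 1 library made from the pooled left hemispheres of 5 mice, per the labels' protocol, whereas the series design names whole brain; a pool hides the spread between its animals. With 1 library per group there was no replicate check, so no error, test or p-value could be had, and every difference below compares these libraries. Differences are log2(FPKM + 1) of one library minus that of the other, a scale that understates the change of low genes, and a gene was called higher or lower at 1.5-fold or more on this scale.

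Voltage-gated calcium channels open on depolarisation and let in the calcium that drives transmitter release, dendritic signalling and gene expression; the alpha1 subunit forms the pore and voltage sensor, and alpha2delta and beta subunits set its trafficking and gating. Voltage-gated sodium channels carry the rising phase of the action potential, with a large alpha subunit that conducts and small beta subunits that modulate gating and act in cell adhesion. Several gamma proteins, the TARPs, are known mainly as auxiliary subunits of AMPA-type glutamate receptors.

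Total FPKM lay between 1857428 and 2357188 per library, and depth is unknown beyond a rough estimate. From the worth of 1 fragment in low values of long transcripts, depth relative to B6 was estimated at 0.769 in F1r, 0.817 in F1i and 0.714 in CAST. The worth of 1 fragment was read from a peak of only 32 to 42 transcripts per library. Pan-neuronal markers, 8 of 8 measured, summed to 1815 FPKM in F1r, 1772 in F1i, 1670 in CAST and 1757 in B6, so markers of the labelled tissue were present in every library. Myelin markers summed to 1660 FPKM in F1r, 1811 in F1i, 1318 in CAST and 2192 in B6, and 6 of 8 were at least 1.5-fold lower in CAST than in B6. In bulk tissue, fewer cells of a type and less RNA per cell cannot be told apart.

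Few channel genes were past the fold threshold: 27 of 28 stayed under 1.5-fold in every comparison. The exception was Cacng7, a TARP, which fell in CAST against B6 and in F1r against F1i. Between CAST and B6, 0 of 28 members were called higher and 1 was called lower, where 6.06% of 13768 genes were higher and 6.08% lower; at 2-fold the same 0 and 1 members stood beside 2.85% and 2.27%. Between F1r and F1i, 0 members were higher and 1 was lower, against 1.19% and 0.777% of all genes, and 0 members were 2-fold higher or lower, against 0.24% and 0.269%. Between the mean of both hybrids and the mean of both parents, which uses the same 4 libraries, 1 member was higher and 0 were lower, against 0.189% and 0.37% of all genes, with 0 members 2-fold higher or lower, against 0.0508% and 0.116%. For CAST minus B6, counts of 0 and 1 among 28 members lie near these shares of all genes. In each comparison the count of 1 is the same gene, Cacng7, so it says nothing of the members as a set. Under rescaling to the same total FPKM, 9 of 28 members were 1.5-fold higher in CAST than in B6, where 2630 of 13818 genes were.

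Below the fold threshold the members leaned to 1 side. The median member difference was 0.15 for CAST minus B6 and 0.11 for F1r minus F1i, where the medians of all genes were 0.04 and 0.03. Of the 28 members, 20 were above 0 and 8 below in CAST minus B6, where 55.4% of all genes were above 0, and 24 were above and 4 below in F1r minus F1i, where 58.1% were. For hybrids minus parents the median was 0.06 and 24 of 28 were above 0, against a median of -0.01 and 47.4% of all genes. The split depended on scaling, which also moved the medians of all genes. With median-ratio scaling CAST minus B6 gave 16 above and 12 below, with a median of 0.09 against -0.02 in all genes. With rescaling to the same total FPKM CAST minus B6 gave 26 above and 2 below. Rescaling moved F1r minus F1i to 27 above and 1 below, but it also moved the median of all genes to 0.34 for CAST minus B6 and 0.27 for F1r minus F1i. For hybrids minus parents, rescaling gave a median of 0.02, with 19 above and 9 below, and moved the median of all genes to -0.04. Median-ratio scaling kept 24 above and 4 below for hybrids minus parents, with a median of 0.06. With protein-coding transcripts only, the CAST minus B6 median was 0.06. Median-ratio scaling gave F1r minus F1i a median of 0.06, with 22 above and 6 below, where the median of all genes was -0.01. Relative to the median of all genes of like transcript length, the medians were 0.02 for CAST minus B6, with 17 above and 11 below, and 0.03 for F1r minus F1i, with 19 above and 9 below. For hybrids minus parents the median on that basis was 0.05, with 22 above and 6 below. Markers of brain regions also differed between the hybrids. The 6 striatal markers summed to 225 FPKM in F1r, 196 in F1i, 198 in CAST and 202 in B6, with a median F1r minus F1i difference of 0.19. The 5 thalamic markers summed to 80.9 FPKM in F1r, 93.9 in F1i, 79.6 in CAST and 93.1 in B6, with a median of -0.15 for F1r minus F1i over the 4 tested. The 7 cerebellar markers summed to 237 FPKM in F1r, 277 in F1i, 237 in CAST and 265 in B6, with a median of -0.08. The part of tissue makeup in the lean of the members was not tested.

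**Figure D1:**
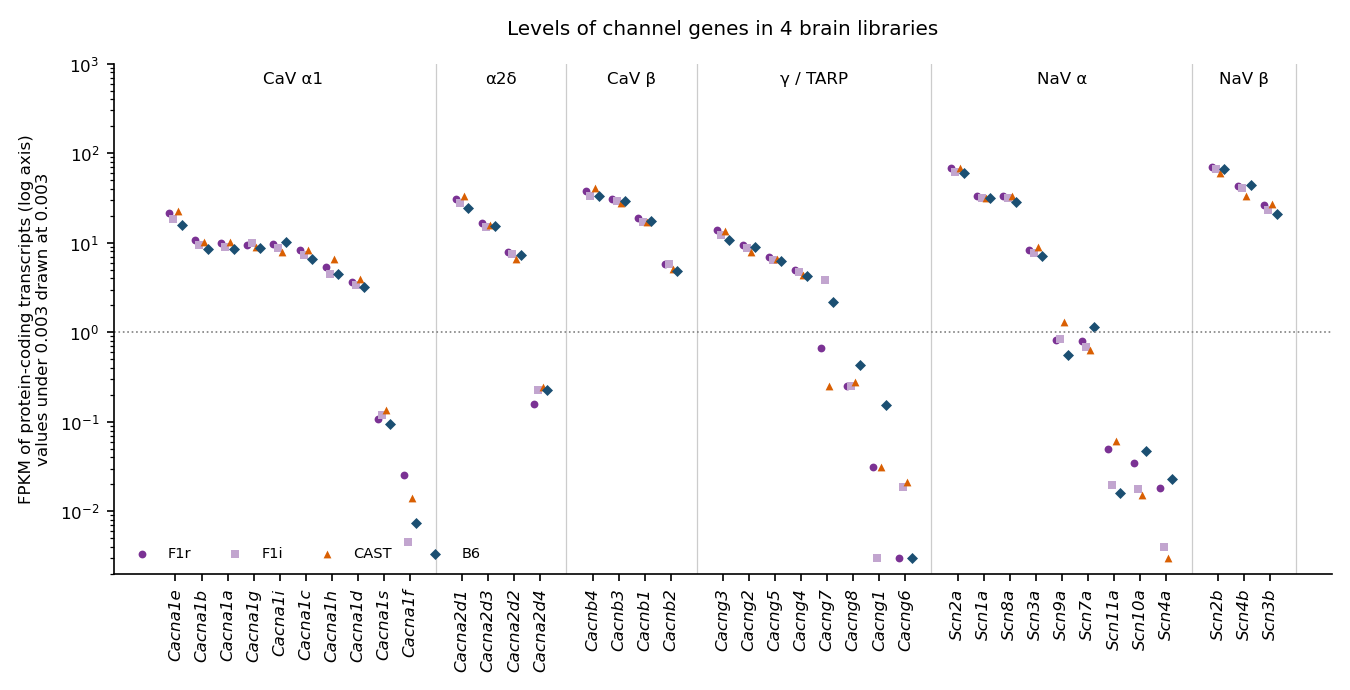
FPKM of protein-coding transcripts on a log axis for channel genes, grouped by family, with 1 point per library (F1r, F1i, CAST, B6); the dotted line marks 1 FPKM. Not every gene of the set is drawn. The 4 points of most genes with a mean of at least 1 FPKM nearly coincide, and those of Cacng7 spread from 0.251 to 3.82 FPKM. Points of genes under that mean, such as Cacng1 and Scn4a, also spread, and the lowest values are drawn at a fixed floor.

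Among calcium channel pores, the 3 CaV2 genes, known for their part in transmitter release, were all at their lowest in B6, as were 17 of all 28 members. Cacna1e, the R-type pore, was at 25.4 FPKM in F1r, 21.2 in F1i, 26.2 in CAST and 18.3 in B6, a difference of 0.49 for CAST minus B6 and 0.25 for F1r minus F1i. Cacna1a, the P/Q-type pore prominent in Purkinje cells, was at 20.1 FPKM in F1r, 20.6 in F1i, 23.9 in CAST and 16.3 in B6. Its CAST minus B6 difference of 0.52 was the highest of the 28 members, and F1r minus F1i was -0.04. Non-coding transcripts held 53.4% of the Cacna1a sum, and its protein-coding transcripts alone gave 10.02 FPKM in F1r, 8.99 in F1i, 10.3 in CAST and 8.44 in B6, with a difference of 0.26 for CAST minus B6. Cacna1b, the N-type pore, was at 10.8 FPKM in F1r, 9.52 in F1i, 10.5 in CAST and 8.54 in B6. Its coding transcripts made up nearly all of that sum, and CAST minus B6 was 0.27.

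The neuronal L-type pores were of lower level, and they carry a choice between 2 exon copies that is visible in the transcript values. Cacna1c, encoding CaV1.2, was at 8.94 FPKM in F1r, 8.14 in F1i, 9.48 in CAST and 7.004 in B6. Cacna1d, encoding CaV1.3, was at 3.63 FPKM in F1r, 3.35 in F1i, 3.896 in CAST and 3.19 in B6. Both had B6 as the lowest library, with CAST minus B6 differences of 0.39 and 0.22. Each gene has a pair of neighbouring 104-base exons of which a transcript holds 1 copy, known to encode a pore-lining segment of the first domain. The copies are shown because transcripts that differ in them differed in share between libraries, and capitals mark bases that differ between the copies of a gene. The Cacna1c copies lie on the minus strand of GRCm38 at chr6:118742265-118742368 (upstream) and chr6:118741871-118741974 (downstream) and differ at 32 bases. Those of Cacna1d lie on the minus strand at chr14:30171956-30172059 and chr14:30171296-30171399 and differ at 22 bases.
Cacna1c upstream copy: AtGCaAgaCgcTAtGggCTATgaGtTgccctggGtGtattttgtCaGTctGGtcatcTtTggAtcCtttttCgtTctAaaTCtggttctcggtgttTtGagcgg
Cacna1c downstream copy: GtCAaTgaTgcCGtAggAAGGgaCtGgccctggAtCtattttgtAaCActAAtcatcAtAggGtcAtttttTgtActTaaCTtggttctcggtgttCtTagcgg
Cacna1d upstream copy: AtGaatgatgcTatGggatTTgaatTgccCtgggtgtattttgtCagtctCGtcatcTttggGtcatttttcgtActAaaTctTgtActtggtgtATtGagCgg
Cacna1d downstream copy: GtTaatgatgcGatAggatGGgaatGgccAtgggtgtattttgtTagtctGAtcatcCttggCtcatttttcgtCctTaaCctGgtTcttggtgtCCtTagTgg

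Transcripts with the downstream copy held 16.4% of the Cacna1c FPKM with either copy in F1r, 17.7% in F1i, 24.0% in CAST and 16.7% in B6. The upstream copy thus prevailed in all 4 libraries, and CAST had the largest downstream share. Most of the Cacna1c downstream FPKM was that of ENSMUST00000188522, at 1.33 in F1r, 1.22 in F1i, 1.96 in CAST and 1.06 in B6. That transcript also has a start of its own, so for Cacna1c too exon choice and start site cannot be told apart. For Cacna1d the downstream share was 0.0146% in F1r, 24.99% in F1i, 17.2% in CAST and 33.0% in B6. For Cacna1d F1r stood apart, with the transcript listed at 0.000531 FPKM, and B6 was highest. Only 2 Cacna1d transcripts are listed, ENSMUST00000112249 with the upstream copy and ENSMUST00000112250 with the downstream copy, and they also start at different places, so exon choice and start site cannot be told apart in these values.

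The 300 bases around each Cacna1d start (250 before and 50 after, RefSeq, GRCm38.p6, minus strand) differ in composition. They are shown because the shares of both transcripts differed between libraries, and capitals mark matches on either strand to the GC box GGGCGG, to the TATA motif TATAAA or to the CCAAT box, where matches may overlap. The start of ENSMUST00000112249 (chr14:30353437-30353736) holds 63 CpG and 6 GC boxes at 87.3% G+C. The start of ENSMUST00000112250 (chr14:30491107-30491406), further upstream, holds 4 CpG, 3 TATAAA and 1 CCAAT at 40.3% G+C. Among 32851 such windows of all genes the median was 7 CpG and 52.7% G+C, and 35.7% held GGGCGG, 13.6% TATAAA and 37.4% CCAAT.
Cacna1d start of ENSMUST00000112249: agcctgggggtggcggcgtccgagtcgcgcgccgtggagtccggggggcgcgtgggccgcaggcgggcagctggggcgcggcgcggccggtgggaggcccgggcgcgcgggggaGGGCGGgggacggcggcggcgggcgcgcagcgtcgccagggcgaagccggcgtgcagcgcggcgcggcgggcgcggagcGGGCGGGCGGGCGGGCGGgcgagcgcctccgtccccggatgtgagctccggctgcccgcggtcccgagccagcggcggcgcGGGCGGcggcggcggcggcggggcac
Cacna1d start of ENSMUST00000112250: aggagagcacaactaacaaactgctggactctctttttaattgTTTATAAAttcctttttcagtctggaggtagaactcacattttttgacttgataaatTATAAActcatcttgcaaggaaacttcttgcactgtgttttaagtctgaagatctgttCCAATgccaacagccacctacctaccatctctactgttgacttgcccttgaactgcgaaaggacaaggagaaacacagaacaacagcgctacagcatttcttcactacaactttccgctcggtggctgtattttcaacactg

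The T-type genes, whose channels open at low voltage and support burst firing, did not share 1 direction. Cacna1g was at 14.04 FPKM in F1r, 12.01 in F1i, 13.3 in CAST and 11.2 in B6, and its differences were 0.23 for CAST minus B6 and 0.21 for F1r minus F1i. Non-coding transcripts held 26.2% of that sum, and its coding transcripts gave 9.53 FPKM in F1r, 10.02 in F1i, 9.01 in CAST and 8.73 in B6. On these the differences were 0.04 for CAST minus B6 and -0.07 for F1r minus F1i, so the direction between the hybrids turned. Cacna1h was at 6.78 FPKM in F1r, 6.55 in F1i, 9.66 in CAST and 7.24 in B6, the only member with both hybrids below both parents, a position found for 9.86% of all genes. Non-coding transcripts held 31.03% of its sum, and on coding transcripts, at 5.35 FPKM in F1r, 4.45 in F1i, 6.56 in CAST and 4.48 in B6, F1r lay between the parents and that position was lost. Cacna1i was at 9.64 FPKM in F1r, 8.74 in F1i, 8.01 in CAST and 10.1 in B6, the only pore gene with a CAST minus B6 difference below 0 (-0.30). Under rescaling to the same total FPKM no pore gene remained below 0.

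A cassette exon of Cacna1g, included or skipped in otherwise joined transcripts, was included more in F1r and CAST than in F1i and B6. The 69-base exon lies on the minus strand at chr11:94439709-94439777, and it is shown because its inclusion differed by more than 15 percentage points in both pairs of libraries. Transcripts with it held 65.9% of the FPKM of transcripts spanning the site in F1r, 48.5% in F1i, 71.7% in CAST and 50.5% in B6. Inclusion was thus 17.5 points higher in F1r than in F1i and 21.2 points higher in CAST than in B6. Among single transcripts, ENSMUST00000107791 held 11.8% of Cacna1g in F1r, 26.8% in F1i, 5.33% in CAST and 24.6% in B6.
Cacna1g 69-base cassette exon: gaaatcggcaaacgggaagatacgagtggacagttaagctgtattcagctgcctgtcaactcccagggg

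The alpha2delta subunits were led by Cacna2d1 at 34.5 FPKM in F1r, 30.2 in F1i, 34.8 in CAST and 27.4 in B6. Cacna2d3 was at 16.7 FPKM in F1r, 15.1 in F1i, 15.7 in CAST and 15.4 in B6. Cacna2d2 was at 7.82 FPKM in F1r, 7.56 in F1i, 7.40 in CAST and 7.31 in B6, with both hybrids above both parents. Only Cacna2d1 had a CAST minus B6 difference over 0.1, at 0.33, and the other two were at 0.03 and 0.02. The even Cacna2d2 sum covered a change in its transcripts. ENSMUST00000010210 held 39.1% in F1r, 35.1% in F1i, 53.3% in CAST and 36.4% in B6, while ENSMUST00000170737 held 29.1% in F1r, 19.8% in F1i, 3.46% in CAST and 25.1% in B6. ENSMUST00000085092 held 26.2% in F1r, 20.2% in F1i, 13.1% in CAST and 29.1% in B6, and ENSMUST00000168532 held 5.32% in F1r, 23.6% in F1i, 20.1% in CAST and 8.32% in B6. The first 2 set CAST apart from the other libraries. ENSMUST00000085092 was lowest in CAST with F1i next, and ENSMUST00000168532 was high in F1i and CAST and low in F1r and B6.

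The beta subunits, which bind the pore from inside the cell and bring it to the membrane, showed how strongly a gene sum can rest on non-coding transcripts. Cacnb4, the subunit mutated in the lethargic mouse, summed to 89.8 FPKM in F1r, 97.2 in F1i, 107 in CAST and 82.1 in B6, among the highest sums of the set. A single 208-base transcript, ENSMUST00000148837, held 52.2 FPKM of it in F1r, 63.7 in F1i, 66.3 in CAST and 48.8 in B6. Protein-coding transcripts of Cacnb4 gave 37.6 FPKM in F1r, 33.5 in F1i, 40.7 in CAST and 33.0 in B6, which turned F1r minus F1i from -0.11 to 0.16. Cacnb2 summed to 17.7 FPKM in F1r, 15.8 in F1i, 14.8 in CAST and 13.8 in B6, of which 65.2% was non-coding, and its coding transcripts gave 5.83 FPKM in F1r, 5.80 in F1i, 5.13 in CAST and 4.88 in B6. Both hybrids were above both parents for Cacnb2 on either count. Cacnb3 was at 30.97 FPKM in F1r, 28.9 in F1i, 27.5 in CAST and 29.3 in B6, and Cacnb1, the beta subunit of skeletal muscle that is also made in brain, at 19.2 in F1r, 17.4 in F1i, 18.0 in CAST and 18.1 in B6. Exons of A430018G15Rik, on the opposite strand, overlap 15.99% of Cacnb4 exon bases, and whether reads were counted by strand is not given in the sources used here.

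Of the gamma family, the TARPs Cacng2, Cacng3, Cacng4, Cacng5 and Cacng7 passed the filter on low values. Cacng3 was at 13.98 FPKM in F1r, 12.2 in F1i, 13.4 in CAST and 10.9 in B6. Cacng2, encoding stargazin, was at 9.44 FPKM in F1r, 8.80 in F1i, 7.86 in CAST and 9.05 in B6. CAST minus B6 was thus 0.28 for Cacng3 and -0.18 for Cacng2, and under rescaling to the same total FPKM both were above 0. Exons of A730060N03Rik, on the opposite strand, overlap 5.86% of Cacng2 exon bases, and that gene was at 1.09 FPKM in F1r, 1.09 in F1i, 2.05 in CAST and 0.324 in B6. Cacng4 was at 5.09 FPKM in F1r, 5.15 in F1i, 4.37 in CAST and 4.25 in B6, with both hybrids above both parents. In all, 3 of 28 members (Cacna2d2, Cacnb2 and Cacng4) had that position, where 8.77% of all genes did, and 9 of 28 had both hybrids between the parents, where 41.3% did. Cacng5 was at 6.87 FPKM in F1r, 6.43 in F1i, 6.54 in CAST and 6.20 in B6, nearly level across the 4 libraries.

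The level Cacng5 sum held 2 transcripts from different starts in unequal measure. ENSMUST00000039071, from the upstream (distal) start, held 84.2% in F1r, 76.9% in F1i, 77.2% in CAST and 57.4% in B6, and ENSMUST00000106742, from the downstream (proximal) start, held the rest. CAST thus took 22.8% of the gene from the proximal start, against 42.6% in B6. Both 300-base windows are shown for comparison of the starts (RefSeq, GRCm38.p6, minus strand, capitals as for Cacna1d). The distal window (chr11:107915006-107915305) holds 17 CpG, 2 GC boxes and 1 CCAAT at 63.3% G+C. The proximal window (chr11:107911313-107911612) holds 5 CpG and none of the 3 motifs at 57.3% G+C.
Cacng5 distal start: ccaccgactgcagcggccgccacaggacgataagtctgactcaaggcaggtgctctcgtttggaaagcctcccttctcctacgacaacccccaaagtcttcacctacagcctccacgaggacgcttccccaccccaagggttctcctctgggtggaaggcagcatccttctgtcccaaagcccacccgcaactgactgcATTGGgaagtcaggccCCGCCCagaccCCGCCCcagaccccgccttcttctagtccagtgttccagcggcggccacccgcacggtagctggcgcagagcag
Cacng5 proximal start: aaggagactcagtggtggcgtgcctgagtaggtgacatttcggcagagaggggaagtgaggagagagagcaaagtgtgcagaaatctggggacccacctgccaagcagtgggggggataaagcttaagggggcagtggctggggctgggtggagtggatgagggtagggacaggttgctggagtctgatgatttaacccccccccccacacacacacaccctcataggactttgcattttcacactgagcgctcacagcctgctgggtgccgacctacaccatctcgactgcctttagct

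Cacng3 also differed in its transcripts. ENSMUST00000084615 held 80.4% in F1r, 82.8% in F1i, 69.8% in CAST and 88.0% in B6, and the 765-base ENSMUST00000182563 held 10.9% in F1r, 11.6% in F1i, 30.2% in CAST and 7.65% in B6. Inclusion of a 141-base exon (chr7:122762183-122762323, plus strand) that separates them was 88.1% in F1r, 87.7% in F1i, 69.8% in CAST and 92.0% in B6. CAST was the library apart on each of these measures, and both hybrids lay between the parents.

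**Figure D2:**
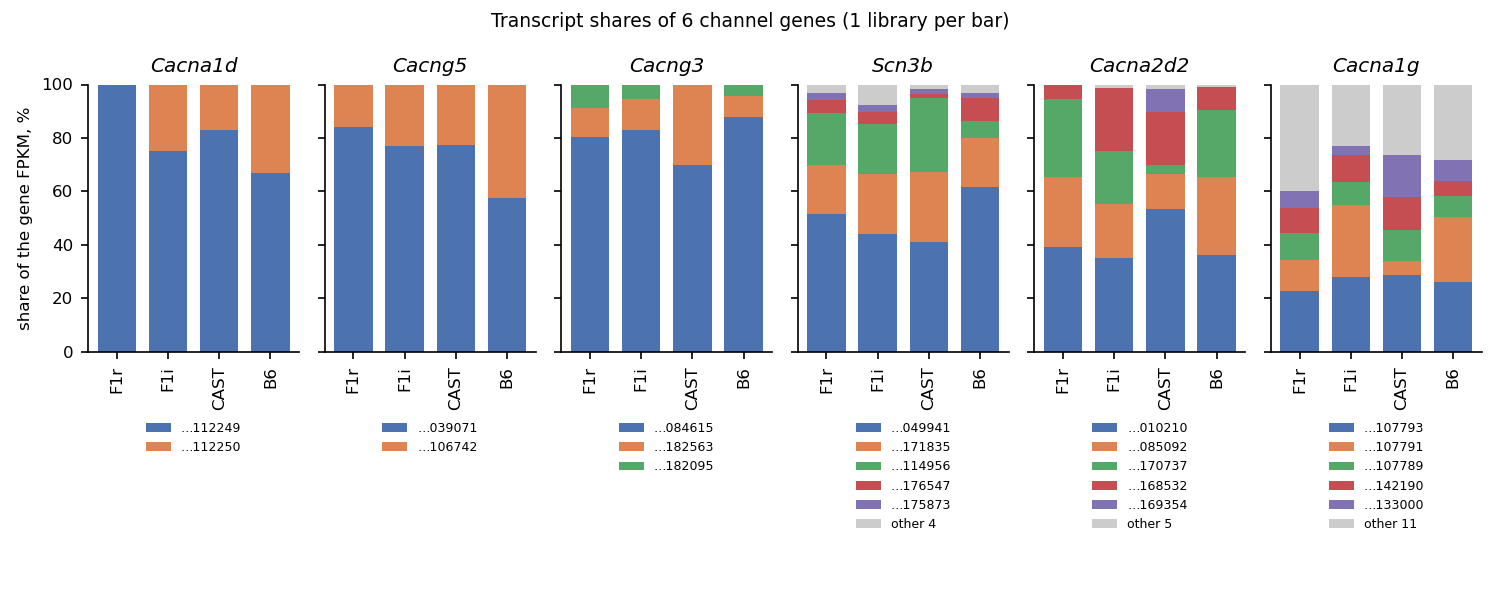
Share of the summed gene FPKM taken by each transcript, in percent, in 1 stacked bar per library (F1r, F1i, CAST, B6) for 6 channel genes whose transcripts differed by at least 15 percentage points between CAST and B6; the keys give the end of each Ensembl transcript number. The Cacna1d transcript ENSMUST00000112250 is nearly absent from F1r at 0.0146%, and the Cacng5 transcript ENSMUST00000106742 is largest in B6 at 42.6%.

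Cacng7 was the only member past the fold threshold, and it passed in all 3 comparisons. It was at 2.01 FPKM in F1r, 3.82 in F1i, 0.251 in CAST and 2.21 in B6. CAST minus B6 was -1.36, past 2-fold as well. F1r minus F1i was -0.68, and the hybrids minus the parents was 0.81. The 2 hybrids did not carry the same transcripts. The coding transcript ENSMUST00000092891 was at 0.667 FPKM in F1r, 3.82 in F1i, 0.251 in CAST and 2.21 in B6, and the remainder in F1r was a retained-intron transcript, ENSMUST00000203497, at 1.34 FPKM in F1r and listed at 0 in the other 3 libraries. On coding transcripts alone F1r minus F1i was -1.53, and the hybrids were no longer 1.5-fold above the parents. From the worth of 1 fragment, the gene rested on an estimated 86.9 fragments in F1r, 304 in F1i, 17.5 in CAST and 215 in B6. The single B6 and CAST libraries do not show how much Cacng7 varies between mice of 1 strain.

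Cacng7 lies on chromosome 7 (3332955 to 3368221, GRCm38, plus strand) in a row with Cacng8 and Cacng6. Cacng8, another TARP, was at 0.254 FPKM in F1r, 0.251 in F1i, 0.281 in CAST and 0.432 in B6. Cacng6 was at most 0.0213 FPKM. None of the 31-base words of Cacng7 transcripts recurred in another gene, against 2.64% of those of Cacng8. Loss of CAST reads on the reference sequence was not tested.

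**Figure D3:**
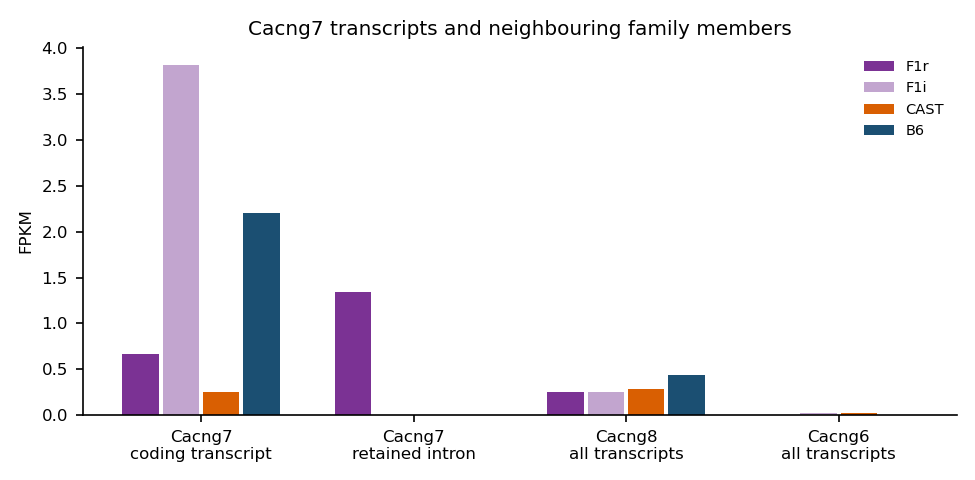
FPKM of the 2 Cacng7 transcripts and summed FPKM of its neighbours Cacng8 and Cacng6, in 1 bar per library (F1r, F1i, CAST, B6). The coding Cacng7 transcript is lowest in CAST at 0.251 FPKM and highest in F1i at 3.82 FPKM, the retained-intron transcript is above 0 in F1r alone at 1.34 FPKM, and Cacng8 and Cacng6 stay under 0.5 FPKM.

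Sodium channel alpha subunits were led by Scn2a, which encodes NaV1.2 of excitatory neurons. It was at 78.1 FPKM in F1r, 66.6 in F1i, 76.3 in CAST and 66.5 in B6, so F1r and CAST formed a higher pair. Scn1a, encoding NaV1.1 of inhibitory interneurons, was at 35.4 FPKM in F1r, 32.4 in F1i, 33.2 in CAST and 33.1 in B6, with a CAST minus B6 difference of 0.00. Scn8a, encoding NaV1.6 of mature axon initial segments and nodes, was at 35.2 FPKM in F1r, 32.6 in F1i, 34.8 in CAST and 29.5 in B6. Scn3a, encoding NaV1.3 and higher in the developing brain, was at 9.06 FPKM in F1r, 8.33 in F1i, 10.04 in CAST and 7.82 in B6, the largest CAST minus B6 difference of the 4 at 0.32. Scn1a and Scn8a could not be ranked beyond the spread of the libraries. Scn1a, Scn2a and Scn3a lie in a cluster on chromosome 2, and 7.29%, 9.16% and 9.57% of their 31-base words recur in another gene, mostly one another, so a part of their reads may not be assigned uniquely.

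Sodium channel beta subunits are single-pass proteins with an immunoglobulin fold. Scn2b was at 70.4 FPKM in F1r, 66.1 in F1i, 60.3 in CAST and 66.8 in B6. Scn4b, which supports resurgent sodium current, was at 43.0 FPKM in F1r, 40.9 in F1i, 33.6 in CAST and 44.2 in B6. Scn3b was at 27.7 FPKM in F1r, 25.6 in F1i, 27.4 in CAST and 21.4 in B6. CAST was the lowest library for Scn2b and Scn4b, at -0.15 and -0.39 against B6, and B6 was the lowest for Scn3b, at 0.34. The Scn3b direction held on protein-coding transcripts, at 0.36. It turned on ENSMUST00000049941 alone, the transcript with the most FPKM times length, at 11.2 FPKM in CAST and 13.2 in B6. Under rescaling to the same total FPKM Scn4b remained below 0 in CAST minus B6 and Scn2b did not. Transcripts of Scn3b exchanged share: ENSMUST00000049941 held 51.6% in F1r, 44.2% in F1i, 41.0% in CAST and 61.6% in B6, and ENSMUST00000114956 held 19.6% in F1r, 18.7% in F1i, 27.6% in CAST and 6.46% in B6.

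Ordered by protein-coding level per length, the members formed a ladder with Scn2b, Scn2a, Scn4b and Cacnb4, in that order, near its top. Scn1a and Scn8a followed, then Cacna2d1, Cacnb3 and Scn3b. Neighbours on this ladder mostly overlapped over the 4 libraries, as Scn1a (31.4 to 33.3 FPKM) did with Scn8a (28.5 to 33.1 FPKM). Scn4b (33.6 to 44.2 FPKM) did not overlap Scn2a (60.3 to 69.0 FPKM).

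Set side by side by role, pore genes and auxiliary genes had different medians. The 12 pore genes had a median difference of 0.25 for CAST minus B6, with 11 above 0, and of 0.12 for F1r minus F1i, with 11 above 0 and Cacna1a below. With protein-coding transcripts only, Cacna1a was above 0 in F1r minus F1i, at 0.14, and Cacna1g was the 1 pore gene below. The 16 auxiliary genes had medians of 0.02 and 0.09, with 9 and 13 above 0. For hybrids minus parents the order was the reverse, with a median of 0.03 and 9 of 12 above 0 in pore genes, and 0.09 and 15 of 16 above 0 in auxiliary genes. Transcript length moved with these values. The leading transcript, the one with the most FPKM times length, had a median length of 8994.5 bases in pore genes and 3925.5 in auxiliary genes. Over all genes the median CAST minus B6 difference was -0.04 at 1 to 2 kb, 0.07 at 4 to 6 kb and 0.20 in the 653 genes of 8 kb or more, where the 12 members of that class, 11 pore genes and Cacnb4, had 0.25. For F1r minus F1i it was -0.02 at 1 to 2 kb, 0.06 at 4 to 6 kb and 0.12 at 8 kb or more, where those members had 0.12. Less the median of its length class, the pore median was 0.05 for CAST minus B6, with 9 of 12 above 0, and 0.00 for F1r minus F1i, with 7 of 12 above 0. Across the 28 members Spearman's rho between length and difference was 0.47 for CAST minus B6 and 0.32 for F1r minus F1i, and across 13768 genes it was 0.15 and 0.27, as a description over genes that share 2 libraries. Pearson's r on log2 length was 0.52 in members and -0.0039 in all genes for CAST minus B6. For hybrids minus parents rho was -0.35 in members and 0.11 in all genes. At 4 to 6 kb the 6 members had a median CAST minus B6 difference of -0.06, below the 0.07 of their class. RNA quality was not measured here, and its part in the length relation was not tested.

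**Figure D4:**
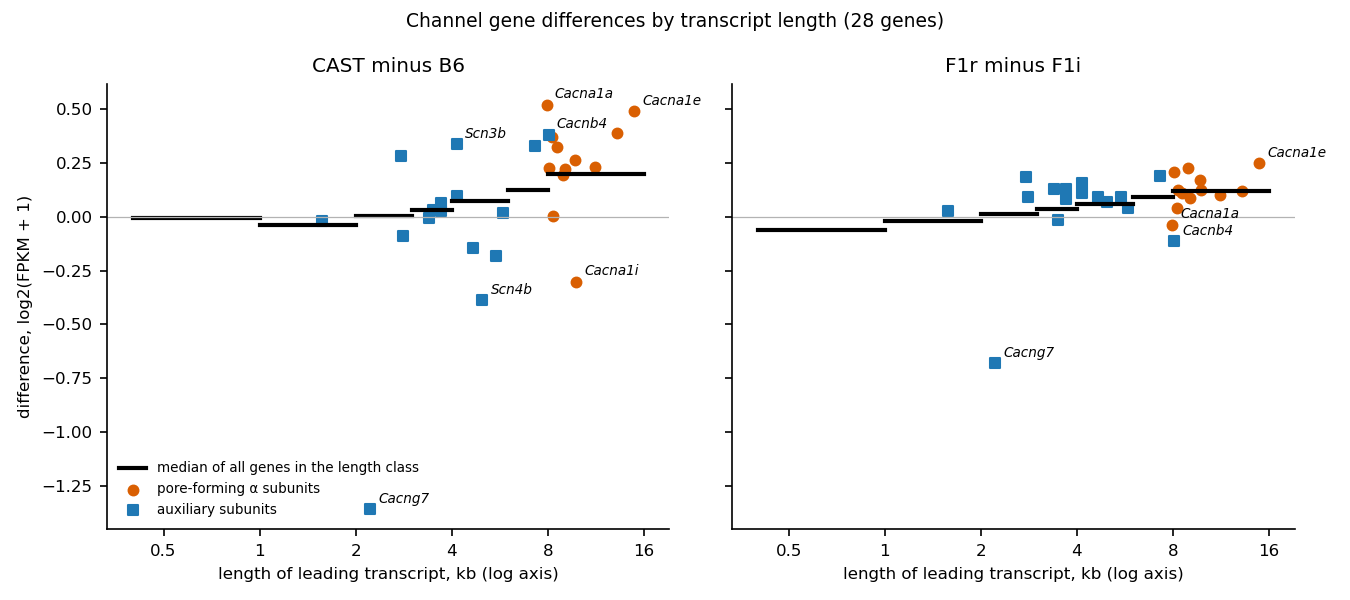
Difference in log2(FPKM + 1) of each of 28 channel genes against the length of its leading transcript in kb (log axis), for CAST minus B6 and F1r minus F1i, with black bars for the median of all genes in each length class. Most pore genes lie at the right, in the class of 8 kb or more with bars at 0.20 and 0.12, though Cacna1i is at -0.30 for CAST minus B6 and Cacna1a, in the class of 6 to 8 kb, at 0.52, and Cacng7 lies apart at -1.36 and -0.68.

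Use of transcripts differed between libraries about as often in channel genes as in all genes. In CAST against B6, 12 of 203 member transcripts (5.91%) differed by at least 15 percentage points of the gene, where 5.97% of all transcripts did, and they fell in 6 of 24 genes, where 22.4% of genes had one. In F1r against F1i, 6 of 205 member transcripts (2.93%) did, where 3.71% of all transcripts did, in 4 of 25 genes, where 14.4% of genes had one. Besides those given above, ENSMUST00000159610 of Cacna1h held 39.6% in F1r, 24.4% in F1i, 23.2% in CAST and 33.1% in B6. Shares of transcripts that overlap in sequence are estimates of the authors' software, and the tables give no interval for them.

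Most of the 12 members under a mean of 1 FPKM are known from muscle, retina or sensory neurons, and their values rest on few fragments. An exception is Cacng8, known as a TARP of the hippocampus, whose low values are given beside Cacng7. Among them are Scn9a, Scn10a and Scn11a of sensory neurons, Scn7a, a sodium sensor, and Scn4a of skeletal muscle. Scn9a, the closest to the threshold, was at 1.05 FPKM in F1r, 0.832 in F1i, 1.33 in CAST and 0.568 in B6. Exons of Gm13629, on the opposite strand, overlap 1.41% of Scn9a exon bases, and that gene was at 5.55 FPKM in F1r, 5.79 in F1i, 5.52 in CAST and 4.395 in B6. Scn7a was at 0.796 FPKM in F1r, 0.688 in F1i, 0.627 in CAST and 1.16 in B6. Just inside the threshold of 1 FPKM stood Cacng7, and the next member above it was Cacna1d at 3.19 to 3.896 FPKM. Cacna2d4, of the retina, was at 0.741 FPKM in F1r, 0.395 in F1i, 0.292 in CAST and 0.656 in B6, with 59.1% in non-coding transcripts. Cacna1f, the retinal L-type pore, was at most 0.0258 FPKM, and the 5 retinal markers summed to at most 0.573 FPKM in a library. Scn10a and Scn11a were at most 0.0616 FPKM, and the sensory ganglion markers summed to 5.18 FPKM in F1r, 5.94 in F1i, 4.84 in CAST and 6.09 in B6.

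Cacng1 and Scn4a, both of skeletal muscle, were highest in B6, and skeletal muscle markers were too. Cacng1, the gamma subunit of the muscle calcium channel, was at 0.0310 FPKM in F1r, listed at 0 in F1i, at 0.0311 in CAST and at 0.155 in B6. Scn4a was at 0.0183 FPKM in F1r, 0.00403 in F1i, listed at 0 in CAST and at 0.185 in B6, of which its coding transcript held 0.0229 FPKM. The 7 skeletal muscle markers summed to 4.68 FPKM in F1r, 4.75 in F1i, 5.40 in CAST and 13.6 in B6, and all 7 were highest in B6, with Ckm, the muscle creatine kinase, at 0.261 in F1r, 0.0112 in F1i, listed at 0 in CAST and at 1.45 in B6. The part of muscle RNA in these values was not tested. Cacna1s, the pore of the same muscle channel, was lowest in B6, at 0.429 FPKM in F1r, 0.394 in F1i, 0.363 in CAST and 0.161 in B6, with 66.0% in non-coding transcripts.

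Partners of the channels, taken from lists of genes known to bind them or act beside them, were also mostly under 1.5-fold. Of all 13768 genes, 6.06% were at least 1.5-fold higher and 6.08% lower in CAST than in B6. Among 11 genes that bind sodium channels or build the axon initial segment, 0 were higher and 1 was lower, with a median of 0.08. The exception was Scnm1, a splicing factor known in mouse as a modifier of Scn8a disease, at 13.2 FPKM in F1r, 12.4 in F1i, 10.3 in CAST and 18.3 in B6. None of 16 tested genes that bind calcium channels or build the active zone passed, with a median of -0.11, nor did the 4 of the sodium leak channel, with a median of 0.21. Of 6 AMPA receptor auxiliary genes, Shisa7 was higher in CAST, at 12.9 FPKM in F1r, 9.78 in F1i, 14.1 in CAST and 7.83 in B6. Of 4 tested intracellular calcium release channels, Ryr3 was higher in CAST, at 7.51 FPKM in F1r, 6.33 in F1i, 8.03 in CAST and 4.25 in B6. Between the hybrids, and between hybrids and parents, 0 partner genes passed 1.5-fold.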

How the data were processed

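RNA of 4 brain libraries was compared, 1 per group. Values are FPKM of single transcripts as the authors deposited them, 1 table for each library. The submitters' processing notes list Cufflinks 2.2.1, Cuffdiff, HISAT2, Trimmomatic 0.36 and bcl2fastq 2.20 with build mm9, but 258 of 262 member transcripts have the coordinates of GENCODE M21, so GRCm38 is given. The kit was strand-specific, per the labels' protocols; counting by strand, handling of multiply mapped reads and any CAST genome were not given in the sources used here. Depth is unknown beyond a rough estimate, so no intervals are given. FPKM of transcripts of at least 200 bases were summed per gene, genes with a mean of at least 1 were compared as log2(FPKM + 1) with a pseudocount of 1, and no test was run. Transcript shares were compared at 15 percentage points where a gene had at least 1 FPKM in both libraries. Shares of an exon sum the FPKM of transcripts that hold it over those that hold or span it. Exon sequences are GENCODE M21 and promoter windows RefSeq (30 members matched). Shared sequence was searched as 31-base words. Members are reported with their values except for some items that are not reported here; transcripts past the share rule and partners past 1.5-fold are named; members and lists were chosen with earlier results of these data known. Cassette exons, promoters and neighbours were picked after their values were seen. Alternatives changed pseudocount, filter, scaling and summing. Steps used Python 3.11.15, numpy 2.4.6, pandas 2.3.3 and matplotlib 3.10.9 and were tested on simulated data.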

Additional observations from a re-analysis of the deposited data

How the results depend on the processing

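No paired analysis was possible because each group has 1 library, and leaving out a library leaves no comparison. Of 775 member differences recomputed, 130 moved by at least 0.1. Of the same 775, 55 changed sign, with a size of at most 0.34 as reported; Cacng7, the only called member, kept its sign. The CAST minus B6 median of members became 0.032 without a filter, 0.46 with rescaling to the same total FPKM, and 0.024 relative to the length class; the F1r minus F1i median became 0.36 with rescaling. At a mean of at least 5 FPKM Cacng7 is left out, so CAST minus B6 had 0 members 1.5-fold lower and 0 at 2-fold, F1r minus F1i 0 lower, and hybrids minus parents 0 higher. Of all 9192 genes at that level, 449 were 1.5-fold lower in CAST minus B6. In F1r minus F1i 43 of them were 1.5-fold lower, and in hybrids minus parents 4 were higher. Rescaling gave 9 members 1.5-fold higher in CAST minus B6, where 2630 of 13818 genes were, and 0 lower in F1r minus F1i, where 59 were. With only the leading or only protein-coding transcripts, F1r minus F1i had 1 member 2-fold lower and hybrids minus parents 0 higher. On leading transcripts, 176 of 13162 genes were 1.5-fold lower in F1r minus F1i and 43 higher in hybrids minus parents. On protein-coding transcripts these were 55 and 9 of 11993. A pseudocount of 0.1 gave 1 member 2-fold higher in hybrids minus parents, where 79 of 13768 genes were 1.5-fold higher. Counts of all genes at 2-fold are not given here for these alternatives. At 25 percentage points 0 member transcripts differed in CAST minus B6 (2.1% of all) and 2 in F1r minus F1i (1.1% of all); at a gene level of 5 FPKM 10 of 199 (5.03%, against 3.57% of all) did in CAST minus B6 and 2 in F1r minus F1i (1.4% of all). Protein-coding transcripts, length classes and means of log2 values were chosen after seeing the data.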
